A study of Mus musculus with 2 samples.

Results

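Treacle, the product of Tcof1, and 9 other genes of ribosome biogenesis were described in the embryonic mouse face. The genes were taken by symbol from the gene tables made with GENCODE annotation release M21: Tcof1, Nolc1, Polr1a, Polr1b, Polr1c, Polr1d, Nop56, Fbl, Ncl and Npm1. They are 10 of the 55536 genes listed there, and every symbol matched 1 gene. PolyA plus RNA-seq had been made from the facial prominence of B6NCrl embryos of 12.5 days, in 2 biological replicates. Replicate 1 pooled tissue of 120 embryos and replicate 2 pooled 88, each of mixed sex and described as healthy, and each library began with 10 ng of RNA. Both samples form 1 group, with no other genotype, treatment, tissue or age, so levels, transcripts and the spread between pools can be described but no conditions can be compared. A pool averages over animals and over every cell type of the dissected tissue, and in such bulk samples a smaller share of cells and less RNA per cell cannot be told apart.

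Ribosomes are built in the nucleolus. RNA polymerase I copies the ribosomal DNA into a long precursor, box C/D and box H/ACA small nucleolar ribonucleoproteins modify it, and large processing complexes cut and fold it into the subunits. Treacle binds polymerase I and its factors at the ribosomal genes. In humans, changes in TCOF1, POLR1B, POLR1C or POLR1D cause Treacher Collins syndrome, in which the facial skeleton forms incompletely, and changes in POLR1A cause a related facial disorder. The neural crest cells that build the face are known for a high demand for ribosomes.

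The expected counts (estimated reads per gene, which need not be whole) summed to 28705073 in replicate 1 and 41092194 in replicate 2, of which ERCC spike-in RNAs took 2.85% and 3.10%. Levels are in TPM, a gene's length-corrected share of all transcripts of its library, and a gene was called detected where neither library fell below 1 TPM. All 12 markers of facial tissue were detected. Their median was 68.7 TPM, led by Msx1, a homeobox gene of facial mesenchyme, at 313.5 ± 7.24 TPM (SD, n = 2), and lowest in Tfap2a, a crest and ectoderm factor, at 7.06 ± 0.530 TPM. All 14 markers of other cell types were detected too, with a median of 41.8 TPM, so blood, nerve, muscle, vessel, immune, pigment and lens cells may each have added RNA. The erythroid globin Hbb-y reached 7369 ± 474 TPM. Between the libraries, 3 of these 14 and 1 of the 12 facial markers differed by more than 1.5-fold on the log2(TPM + 1) scale. The share over detected protein-coding genes was 1.25%. The facial marker was Barx1, which was lower in replicate 2, at 168.1 and 83.9 TPM in replicates 1 and 2. Tfap2b (21.62 and 32.47 TPM), Alx1 (102.62 and 149.87 TPM) and Dlx5 (80.75 and 54.78 TPM) fell just short of the threshold on that scale. The 3 markers of other cell types that passed were higher in replicate 2, among them Pmel, of pigment cells, at 20.7 and 37.5 TPM. The lens crystallins Cryaa and Cryba1 were among the 3, at 88.1 and 221.5 TPM for Cryaa and 52.6 and 124.0 TPM for Cryba1 in replicates 1 and 2. The part of such differences in tissue makeup in the levels below was not tested.

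Several of the 10 genes make more than 1 coding message, and the sequences where those messages part are shown first because the shares described below turn on them. All were read from the GENCODE M21 transcripts, 5′ to 3′, on mm10. Polr1d (plus strand, chromosome 5) has a pair of coding transcripts that share their first 26 coding bases, in lower case, and then use different exons, whose first 60 bases are in capitals. The capitals lie at chr5:147101229-147101288 for Polr1d-202 and at chr5:147078535-147078594 for Polr1d-201.
Polr1d-202: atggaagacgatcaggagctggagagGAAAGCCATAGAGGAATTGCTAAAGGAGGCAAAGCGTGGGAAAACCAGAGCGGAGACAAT
Polr1d-201: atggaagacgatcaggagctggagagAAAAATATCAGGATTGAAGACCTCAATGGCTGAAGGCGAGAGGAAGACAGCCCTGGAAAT

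Npm1 (minus strand, chromosome 11) varies in an inner exon and at its coding end. The inner exon of Npm1-201, in capitals between 18 flanking bases on each side, lies at chr11:33156664-33156747 and is absent from Npm1-202.
Npm1-201 inner exon: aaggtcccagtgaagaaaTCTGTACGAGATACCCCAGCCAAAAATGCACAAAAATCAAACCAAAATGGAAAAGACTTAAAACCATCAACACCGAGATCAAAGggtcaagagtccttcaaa
The coding ends share the 18 bases in lower case, and the capitals run from there to the last coding base before the stop codon. They lie at chr11:33152817-33154060 for Npm1-201, in exons separated by an intron, at chr11:33155215-33155220 for Npm1-204 and at chr11:33155342-33155431 for Npm1-203.
Npm1-201 end: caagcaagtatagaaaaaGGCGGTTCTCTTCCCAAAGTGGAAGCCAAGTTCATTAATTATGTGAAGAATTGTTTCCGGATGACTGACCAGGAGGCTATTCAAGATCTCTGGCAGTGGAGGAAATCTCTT
Npm1-204 end: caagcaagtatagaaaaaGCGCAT
Npm1-203 end: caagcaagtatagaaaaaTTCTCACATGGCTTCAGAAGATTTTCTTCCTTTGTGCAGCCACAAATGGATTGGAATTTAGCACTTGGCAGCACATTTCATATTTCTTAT

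Nolc1 (plus strand, chromosome 19) differs between transcripts by 3 bases at the starts of exon 3 and exon 5. The capitals, at chr19:46078873-46078875 and chr19:46079908-46079910, are coding bases of Nolc1-209 that Nolc1-203 lacks. Both triplets are the same.
Nolc1-209 exon 3: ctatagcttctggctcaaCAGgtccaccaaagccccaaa
Nolc1-209 exon 5: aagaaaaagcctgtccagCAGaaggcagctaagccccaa
Ncl (minus strand, chromosome 1) has a transcript, Ncl-202, that keeps 2 introns. The shorter, of 190 bases at chr1:86352320-86352509, is in capitals between 18 exon bases on each side, and it begins with GT and ends with AG as spliced introns usually do.
Ncl-202 kept intron: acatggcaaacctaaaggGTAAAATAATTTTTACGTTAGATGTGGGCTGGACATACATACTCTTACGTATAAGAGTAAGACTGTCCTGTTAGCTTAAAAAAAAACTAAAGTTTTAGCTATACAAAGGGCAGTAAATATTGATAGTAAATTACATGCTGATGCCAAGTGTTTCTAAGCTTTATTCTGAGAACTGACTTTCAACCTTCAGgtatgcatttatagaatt

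All 10 genes were detected, as were 60.7% of the 22028 protein-coding genes. They spanned a 28.3-fold range of mean level, and their median was 84.3 TPM, against 21.5 TPM for the 13382 detected protein-coding genes. Npm1, Ncl, Nop56 and Fbl, 4 of 10, stood at 100 TPM or more in both libraries, as did 7.26% of all protein-coding genes. The 4 polymerase subunits, Nolc1 and Tcof1 stood below. Summed over the 10 genes, replicates 1 and 2 had 1811 and 1885 TPM, of which Npm1 alone gave 40.0% and 40.2%. The order of levels was Npm1, Ncl, Nop56, Fbl, Polr1d, Polr1c, Nolc1, Tcof1, Polr1a and Polr1b. Only for Polr1c and Nolc1 did the ranges of neighbours in this order overlap between libraries.

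**Figure D1:**
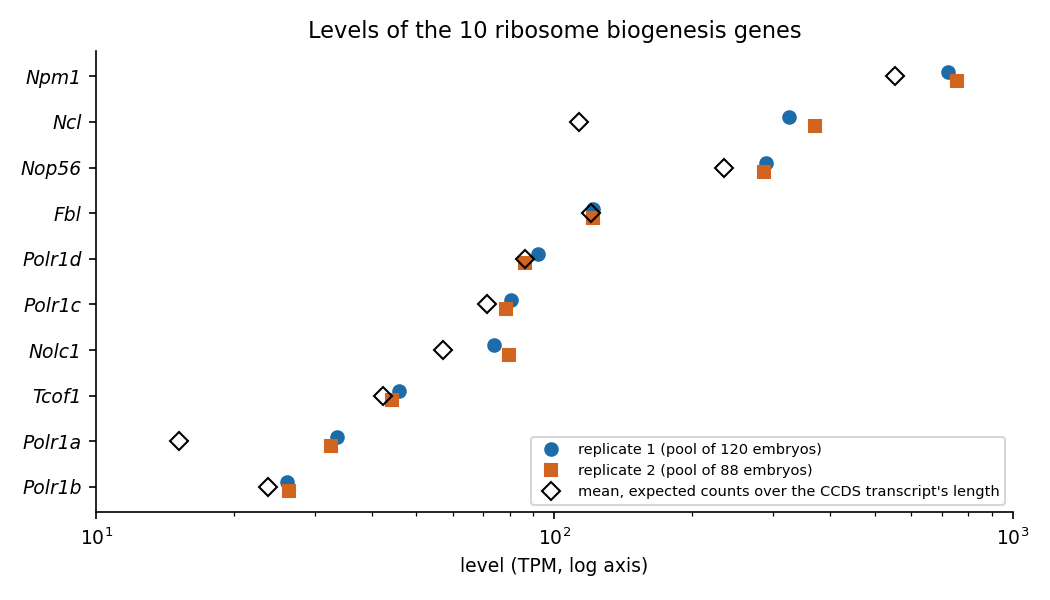
Level of each gene in TPM (log axis), with a blue circle for replicate 1 and an orange square for replicate 2. The open diamond is the mean level recomputed from the expected counts over the length of the gene's longest transcript in the consensus coding set. It lies well to the left of the deposited values for Ncl (113 TPM) and Polr1a (15.1 TPM). It is also lower for Npm1 (553 TPM), Nop56 (234 TPM) and Nolc1 (57.1 TPM), and closer to the deposited values elsewhere.

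Tcof1, which lies on the minus strand of chromosome 18 from 60813755 to 60848971, encodes the scaffold that holds polymerase I and its factors at the ribosomal genes. Its level in replicates 1 and 2 was 45.9 and 44.2 TPM (45.1 ± 1.22, SD, n = 2), from 3515 and 4961 expected counts. This placed it at rank 3880 of 22028 protein-coding genes, eighth of the 10 genes. Its messages were almost all annotated as protein-coding, at 97.7% and 97.8% of the gene's TPM. A pair of them led: Tcof1-204 took 52.6% and 59.7%, and Tcof1-202 took 36.3% and 31.6%. Their coding sequences differ by 108 bases, or 36 codons, that Tcof1-202 includes and Tcof1-204 leaves out. Tcof1-204 thus exceeded Tcof1-202 by 1.45 times in replicate 1 and 1.89 times in replicate 2, and no other Tcof1 transcript passed 5% in both libraries.

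Nolc1 (plus strand, chromosome 19, 46075863 to 46085530) encodes Nopp140, a nucleolar protein that, like treacle, carries long runs of phosphorylated repeats and binds small nucleolar ribonucleoproteins. In human cells both proteins are joined to polymerase I factors after they are marked with ubiquitin by the CUL3 and KBTBD8 ligase. Nolc1 stood at 73.7 and 79.6 TPM (76.6 ± 4.15), 1.60 and 1.80 times the level of Tcof1 in the same library. The excess was smaller with annotation release M4, an older one described below. There Nolc1 stood at 53.6 and 58.5 TPM and Tcof1 at 48.2 and 46.5 TPM. It was also smaller over the length of the longest consensus coding transcripts, at 54.7 and 59.6 TPM for Nolc1 against 42.4 and 42.2 TPM for Tcof1. Nolc1-203, which lacks both CAG triplets shown above, took 48.9% and 47.2% of the gene's TPM. Nolc1-202, which has them, took 29.9% and 33.4%, while Nolc1-209, the transcript of the consensus set from which they are printed, was listed at 0 in both libraries. In the posterior mean estimates Nolc1-209 had 7.32% and 5.19% and Nolc1-202 had 21.1% and 27.9%, so the split between these near-identical transcripts depended on the estimate. Nolc1-207, annotated as keeping an intron, took 11.6% and 11.3%.

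The other treacle partners were read from a list of 9 genes that also holds Nolc1. All 9 were detected, with a median of 61.0 TPM. The subunits of casein kinase 2, which phosphorylates treacle and Nopp140, stood at 201 ± 3.21 TPM for Csnk2b, 71.1 ± 4.89 TPM for Csnk2a1 and 9.85 ± 0.332 TPM for Csnk2a2. Ubtf, the factor that binds ribosomal DNA along its length, stood at 85.2 ± 6.45 TPM. The genes for the DNA damage partners Topbp1 and Nbn stood at 61.0 ± 0.841 and 30.6 ± 3.64 TPM. Of the ubiquitin ligase, the scaffold gene Cul3 had 22.04 and 19.95 TPM and the adaptor gene Kbtbd8 was lowest of the list at 3.32 ± 0.403 TPM, from 263 and 368 expected counts.

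Polymerase I is made of a large catalytic pair, an assembly pair that it shares with polymerase III, small subunits shared with other polymerases, and subunits of its own. The catalytic pair had the lowest levels of the 10 genes. Polr1a, the largest subunit (plus strand, chromosome 6, 71909053 to 71984935), stood at 33.6 and 32.6 TPM (33.1 ± 0.665). Polr1b, the second largest (plus strand, chromosome 2, 129100995 to 129126594), stood at 26.0 and 26.3 TPM (26.2 ± 0.184). With these values Polr1b was 0.776 and 0.806 times Polr1a in the same library. The order turned round with the older annotation release M4, with which the same reads had also been quantified: there Polr1b at 27.5 and 27.8 TPM was 1.20 and 1.18 times Polr1a at 23.0 and 23.5 TPM. It also turned round over the length of the longest consensus coding transcripts, where the ratio was 1.57 and 1.56.

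The assembly pair stood higher. Polr1c (minus strand, chromosome 17, 46243920 to 46248054) stood at 80.5 and 78.4 TPM (79.4 ± 1.51), 2.40 times Polr1a in each library with the M21 values. Polr1d (chromosome 5, 147077050 to 147111597) stood at 92.1 and 86.4 TPM (89.2 ± 4.00), 2.74 and 2.65 times Polr1a with the same values. Polr1c was mostly 1 message, Polr1c-201, with 77.1% and 76.0%. Polr1c-203, which holds 780 of its 1038 coding bases, had 14.4% and 12.7%. Polr1b was led by Polr1b-202, the transcript of the consensus set, with 88.5% and 88.9%.

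Polr1d was divided between the pair of messages whose starts are printed above, both in the consensus coding set. Polr1d-202 took 62.5% and 59.3%, and Polr1d-201 took 37.4% and 38.9%. Their coding sequences, of 378 and 399 bases, share only the 26 bases at the start. The reading frame of Polr1d-201, of 133 codons, is the one known from the human protein as AC19, the subunit that pairs with Polr1c in polymerases I and III. The more abundant message, Polr1d-202, codes for a different sequence after its first codons. Polr1d-201 alone stood at 34.5 and 33.6 TPM, and Polr1c exceeded it by 2.34 and 2.33 times. Its ratio to Polr1a was 1.03 in each library with the M21 values, 1.58 and 1.51 with M4, and 2.30 and 2.19 with Polr1a taken over its consensus transcript length.

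**Figure D2:**
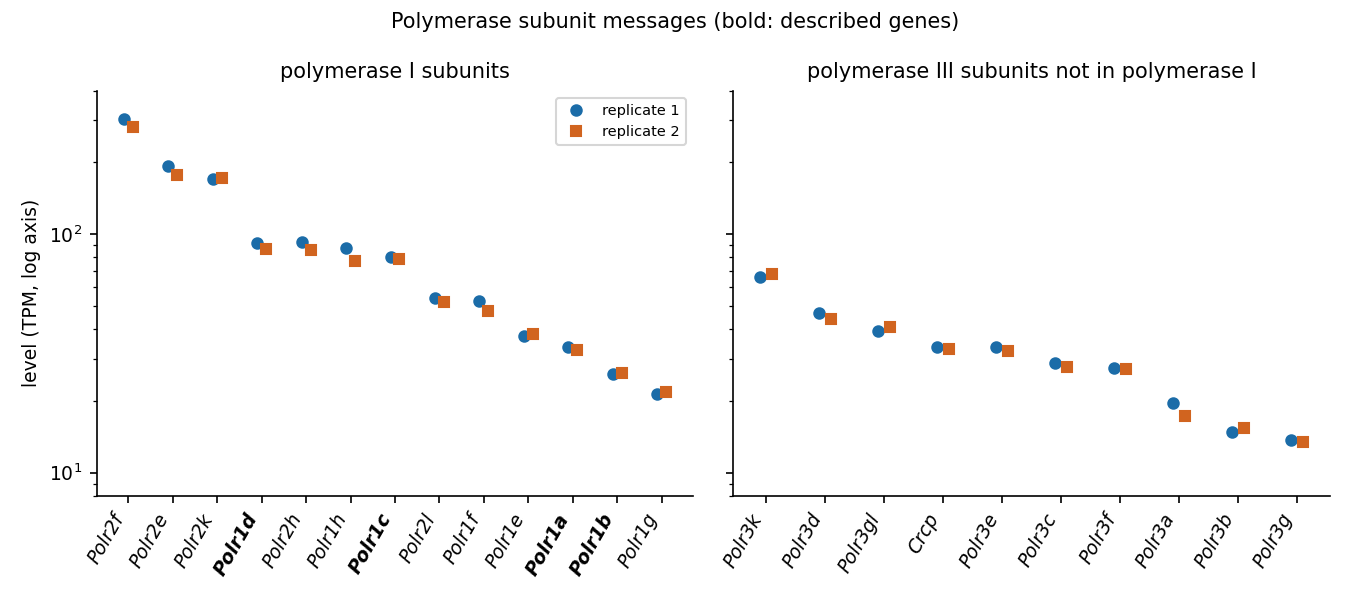
Level in TPM (log axis) of the 13 polymerase I subunits (left) and of 10 polymerase III subunits absent from polymerase I (right), with a blue circle for replicate 1 and an orange square for replicate 2, in falling order of the mean. Polr2f leads the left panel at 291 TPM, Polr1a and Polr1b stand near its lower end, and the right panel spans 13.6 to 67.0 TPM.

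Among the 13 polymerase I subunits, all detected, the median was 79.4 TPM. Small subunits shared with polymerases II and III were the highest, with Polr2f at 291 ± 15.6 TPM, Polr2e at 185 ± 10.3 TPM and Polr2k at 171 ± 1.46 TPM. Polr2h (89.0 ± 4.73 TPM) and Polr2l (52.9 ± 1.70 TPM), which are shared as well, were lower. Of the subunits found in polymerase I alone, Polr1h, listed as Znrd1, stood at 82.5 ± 7.60 TPM and Polr1f, listed as Twistnb, at 50.1 ± 3.64 TPM. The genes of the heterodimer Polr1e and Polr1g (listed as Cd3eap) stood at 37.9 ± 0.467 and 21.6 ± 0.389 TPM, on either side of Polr1a and Polr1b. Polr1g was the lowest of the 13.

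The 10 listed polymerase III subunits absent from polymerase I, all detected, had a median of 30.6 TPM. With the M21 values, the catalytic pair of polymerase III, Polr3a at 18.4 ± 1.56 TPM and Polr3b at 15.1 ± 0.354 TPM, were the other low members beside Polr3g. Their ratios to Polr1a moved with the setting. Polr3a was on average 0.556 times Polr1a with the deposited M21 values, 0.453 with M4 and 0.699 over the consensus length. Polr3b was 0.456, 0.642 and 0.925 times Polr1a under the same settings. Polr3a itself moved too, to 10.9 and 10.1 TPM with M4 and 11.1 and 10.1 TPM over the consensus length. Polr3b was higher than Polr3a there, at 14.2 and 15.6 TPM with M4 and 13.4 and 14.6 TPM over the consensus length. Polr3k (67.0 ± 1.09 TPM), Polr3d (45.4 ± 1.91 TPM) and Polr3gl (39.9 ± 1.11 TPM) were the highest of the list. Crcp (33.3 ± 0.573 TPM), Polr3e (32.9 ± 0.948 TPM), Polr3c (28.2 ± 0.693 TPM) and Polr3f (27.3 ± 0.127 TPM) came next. Polr3g, the paralog of Polr3gl known from early embryos and stem cells, was lowest with the M21 values, at 13.6 ± 0.184 TPM.

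The 8 initiation and termination factors of polymerase I were all detected, with a median of 32.6 TPM. After Ubtf, the highest were Taf1d (65.7 ± 2.72 TPM), a subunit of the promoter selectivity factor SL1, and Rrn3 (64.9 ± 0.0283 TPM), which recruits the polymerase to the promoter. Tbp, shared by all 3 polymerases, stood at 41.0 ± 1.79 TPM. The other SL1 genes were Taf1b at 24.2 ± 2.18, Taf1a at 19.5 ± 0.205 and Taf1c at 12.0 ± 0.141 TPM. Ttf1, which stops transcription at the end of the precursor, was lowest at 9.32 ± 0.594 TPM. Of the Myc factors, which drive ribosome biogenesis genes in many tissues, Mycn stood at 57.1 ± 0.735, Myc at 45.3 ± 1.17, Mycl at 38.4 ± 2.93 and their partner Max at 10.6 ± 0.587 TPM.

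Fbl and Nop56 encode the methyltransferase and a scaffold of the box C/D small nucleolar ribonucleoproteins, which methylate ribosomal RNA. Nop56 (plus strand, chromosome 2, 130274430 to 130279313) stood at 289.3 and 286.8 TPM (288.0 ± 1.73). Fbl (plus strand, chromosome 7, 28169710 to 28179269) stood at 121.4 and 121.3 TPM (121.4 ± 0.0636), the closest pair of values among the 10 genes. Nop56 was 2.38 and 2.36 times Fbl in the same library. The excess was smaller over the length of the longest consensus coding transcripts, at 232.9 and 235.1 TPM for Nop56 against 120.6 and 119.7 TPM for Fbl. Fbl was nearly a single message, Fbl-201, with 95.3% and 94.3%. Nop56 had 19 annotated transcripts, of which Nop56-202, the one in the consensus set, took 46.9% and 49.6% and 4 others passed 5% in both libraries. Transcripts annotated as keeping introns took 29.5% and 26.2% of Nop56.

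The box C/D list of 11 genes, which holds Nop56 and Fbl, was detected in full with a median of 118 TPM, the highest of the ribosome biogenesis lists. The other core proteins, Nop58 (201.6 ± 14.9 TPM) and Snu13 (201.5 ± 2.01 TPM), stood between Nop56 and Fbl. The assembly ATPases Ruvbl1 and Ruvbl2 stood at 120.0 ± 0.707 and 118 ± 0.877 TPM. The other assembly factors were lower: Pih1d1 at 71.9 ± 1.70, Znhit3 at 50.6 ± 1.00, Znhit6 at 39.6 ± 2.66, Rpap3 at 28.3 ± 1.97 and Nufip1 at 14.6 ± 1.03 TPM. The box H/ACA list, whose particles turn uridine into pseudouridine, was detected in 7 of 7 genes with a median of 85.7 TPM. Its core stood close together, with Nop10 at 137 ± 6.78, Nhp2 at 108 ± 3.54, Dkc1 at 103 ± 1.51 and Gar1 at 85.7 ± 2.55 TPM, while the assembly factors Shq1 and Naf1 were at 14.0 ± 0.827 and 3.00 ± 0.233 TPM.

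Of the later steps, the 32 genes listed for small subunit processing and assembly had a median of 40.6 TPM. The 41 genes of large subunit assembly had a median of 57.7 TPM, and all genes of both lists were detected. The small subunit list was led by Emg1 (153 ± 3.10 TPM), a methyltransferase of the small subunit RNA, then Nob1 (76.6 ± 0.799), Tbl3 (73.7 ± 0.382) and Imp4 (70.0 ± 1.30), with Utp20 (19.2 ± 0.502) and Utp14a (16.8 ± 1.36) lowest. The large subunit list was led by Rrp1 (258 ± 7.90), Eif6 (146 ± 1.49), which keeps the subunits apart, Ebna1bp2 (125 ± 5.52) and Rsl24d1 (111 ± 2.06). Mdn1 (14.6 ± 1.33), the giant ATPase of assembly, and Noc3l (7.93 ± 0.170) were lowest. Over all 118 listed ribosome biogenesis genes other than the 10, 117 were detected and the median was 50.2 TPM.

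Ncl encodes nucleolin, an RNA-binding protein of the nucleolus that acts in transcription and processing of the precursor. It lies on chromosome 1 from 86344719 to 86359400 and stood at 324.9 and 371.2 TPM (348.1 ± 32.7), with 15734 and 25600 expected counts, the most of the 10 genes. Most of its level was given to transcripts that are not annotated as coding. Ncl-202, which keeps the intron shown above and another of 492 bases, took 58.4% and 60.4%. Ncl-205, a short transcript of 601 bases that is also annotated as keeping an intron, took 28.1% and 27.0%. Ncl-201, the transcript of the consensus set, took 8.94% and 8.40%.

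The structure of these Ncl transcripts bears on that split. Ncl-202 holds all 2121 coding bases of Ncl-201 and ends 128 bases after them. Ncl-201 runs 5904 bases past its coding end and is 8202 bases long. Whether reads belonged to a spliced message with an end near that of Ncl-202 was not tested, since read positions were not analysed here. Over the length of Ncl-201, the expected counts of the gene gave 105 and 121 TPM (113 ± 11.0), so the deposited level was 3.08 times as high. On that scale Ncl no longer stood apart from Fbl, whose values of 120.6 and 119.7 TPM lay within its range.

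Most of the level of Polr1a was likewise given to transcripts not annotated as protein-coding. Unlike Ncl-202, those named here each hold only part of the coding bases. Polr1a-207, annotated as a target of nonsense-mediated decay, in which messages with an early stop are degraded, took 47.2% and 51.8%. It holds 2907 of the 5151 coding bases and ends at 71955150. Polr1a-203, of the same type, took 16.2% and 14.9%. It begins at 71961540 and holds 2228 of the coding bases. Polr1a-208, annotated as keeping an intron, took 15.8% and 16.1%. Whether reads of 1 full-length message were divided among these transcripts was not tested. The full-length Polr1a-201, of 9216 bases, took 13.4% and 15.1%. Over the length of Polr1a-201 the level was 15.0 and 15.3 TPM (15.1 ± 0.278), so the deposited level was 2.18 times as high. Polr1b stood at 23.5 and 23.9 TPM on that scale. Polr1c would be 4.85 and 4.57 times Polr1a.

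**Figure D3:**
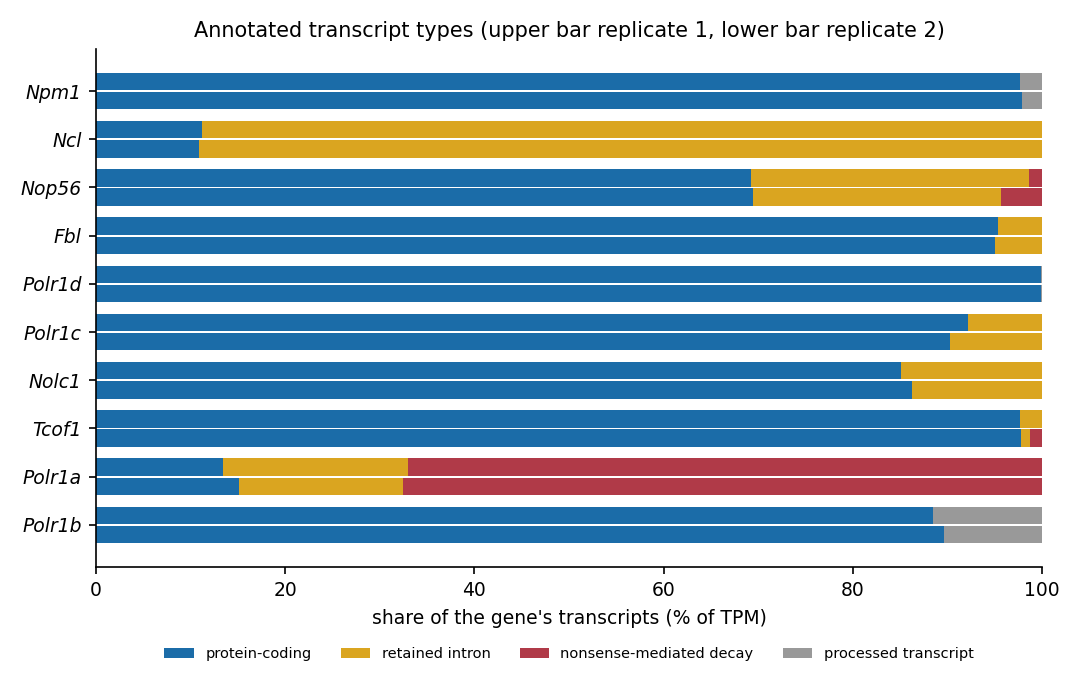
Share of each gene's TPM by annotated transcript type, with the upper bar for replicate 1 and the lower for replicate 2. Ncl is mostly retained intron (88.8% and 89.1%) and Polr1a mostly nonsense-mediated decay (67.0% and 67.6%), while protein-coding transcripts take 69.2% or more in each of the other 8 genes.

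The leading transcript was not annotated as protein-coding in these 2 of 10 genes, against 9.53% of detected protein-coding genes. It lacked a consensus coding entry in 4 of 10 (Ncl, Polr1a, Npm1 and Nolc1), against 19.7%. The share of TPM on coding transcripts was 11.2% and 10.9% in Ncl, lower than in all but 1.22% of detected protein-coding genes, and 13.4% and 15.1% in Polr1a, lower than in all but 1.57%. The median over detected protein-coding genes was 90.9%.

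Npm1 encodes nucleophosmin, a histone and ribosome chaperone of the outer nucleolus. It lies on chromosome 11 from 33152287 to 33163206 and was the highest of the 10 genes, at 724.1 and 758.0 TPM (741 ± 23.9), rank 110 among protein-coding genes. Npm1-202, which lacks the 84-base inner exon, took 48.9% and 46.8%, and Npm1-201, which has it, took 17.4% and 21.6%. These share the long coding end, known from human nucleophosmin to be needed for its place in the nucleolus, and together took 66.3% and 68.4%. Npm1-204, which replaces that end of 111 bases by 6, took 22.9% and 22.1%. Npm1-203, whose end has 90 bases of its own, took 8.63% and 7.41%. The long end thus exceeded the other coding ends by 2.10 and 2.32 times in TPM.

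The paralogs of these proteins were far lower. Npm3, another nucleoplasmin, stood at 11.0 ± 0.962 TPM. Npm2, known for its role in the egg, had 1.15 and 0.55 TPM, from 19 and 13 expected counts, and Fbll1, the paralog of fibrillarin, had 1.20 and 1.01 TPM from 31 and 37.

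The 2 pools gave closely matching levels. The SD was between 0.0524% of the mean for Fbl and 9.41% for Ncl. None of the 10 genes differed by 1.5-fold between the libraries on the log2(TPM + 1) scale, against 1.25% of detected protein-coding genes. The median log2 ratio of replicate 2 over replicate 1 was -0.01 in the 10 genes and 0.00 in detected protein-coding genes.

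The counting interval excluded 1 in 4 of the 10 genes, against 30.0% of detected protein-coding genes. The ratio of expected counts per library total, replicate 2 over replicate 1, was 1.14 for Ncl, with an exact 95% counting interval of 1.12 to 1.16. It was 1.08 for Nolc1 (interval 1.04 to 1.13) and 1.06 for Npm1 (1.04 to 1.08). For Polr1d it was 0.934 (0.877 to 0.993). In the other 6 genes, Tcof1 among them at 0.988 (0.946 to 1.03), the interval included 1. Scaling on the spike-ins moved the median of detected genes by -0.13 on the log2 scale and left only Ncl above 0, at 0.06, with Nolc1 at -0.03 and Npm1 at -0.07. With 1 library per pool these ratios have no replicate check, and amplified reads are not independent molecules, so the intervals cover counting error only.

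**Figure D4:**
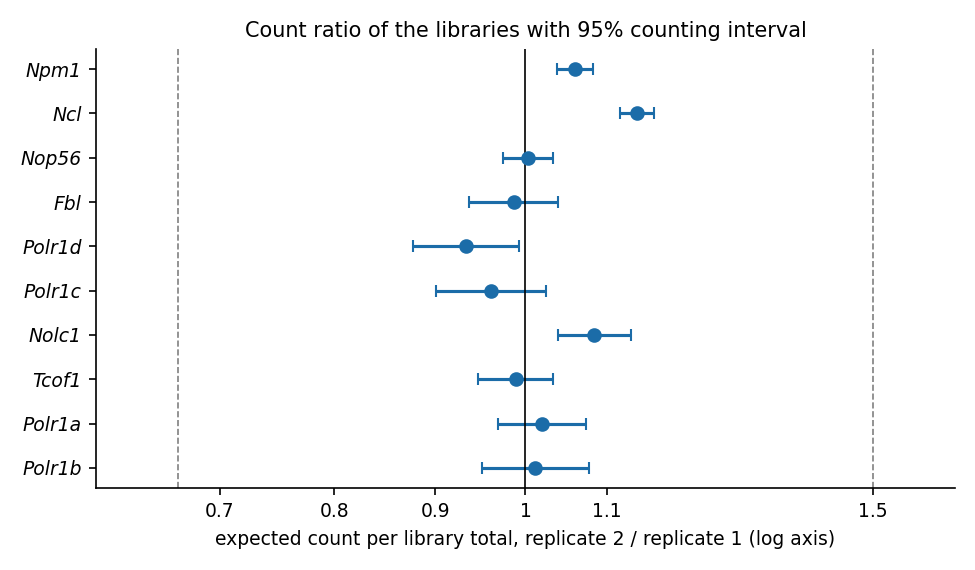
Ratio of expected counts per library total, replicate 2 over replicate 1 (log axis), with bars for the exact 95% counting interval, a solid line at 1 and dashed lines at 1.5-fold either way. Ncl, Nolc1 and Npm1 lie above 1, Polr1d lies below, and no gene comes near the dashed lines.

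The values made with release M4 allowed the levels to be compared between annotations. None of the 10 genes differed by 1.5-fold in the same direction in both libraries, against 5.09% of the detected protein-coding genes matched by ID. Polr1a and Nolc1 came nearest. Polr1a stood at 33.6 and 32.6 TPM with M21, against 23.0 and 23.5 TPM with M4 (log2 ratio 0.53 and 0.46). Nolc1 stood at 73.7 and 79.6 TPM with M21, against 53.6 and 58.5 TPM with M4 (log2 ratio 0.45 and 0.44). Both have several transcripts in M21, 10 for Polr1a and 9 for Nolc1, against 1 each in M4, and their expected counts differed less: 2513 and 3658 with M21 against 2412 and 3490 with M4 for Polr1a.

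The other 8 genes were slightly lower with M21, with log2 ratios of -0.05 to -0.09. Tcof1 had the same 3515 and 4961 counts in both releases, and Tcof1-204 led in both. Fbl also had a single transcript in M4 but hardly moved, at 121.4 and 121.3 TPM with M21 against 128.2 and 125.6 TPM with M4. Ncl-202 led Ncl in both releases.

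**Figure D5:**
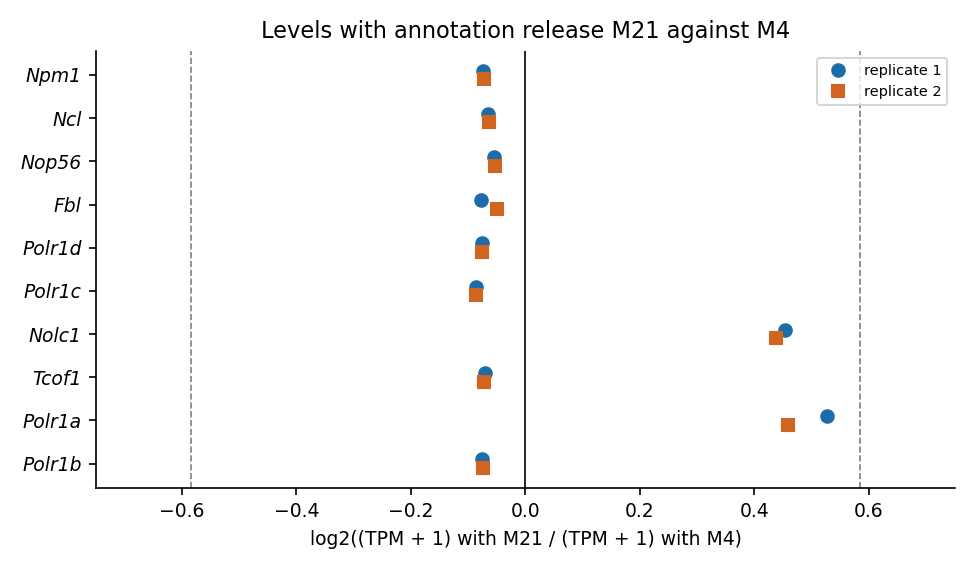
log2 of TPM + 1 with release M21 over TPM + 1 with release M4, with a blue circle for replicate 1, an orange square for replicate 2 and dashed lines at 1.5-fold. Polr1a and Nolc1 lie between 0.44 and 0.53, and the other 8 genes between -0.09 and -0.05.

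Copies elsewhere in the genome could share reads with some of the genes. A search of each coding sequence against all M21 transcripts, at 90% identity or more over at least 200 bases, found other genes for Npm1 (8), Nop56 (6), Fbl (3) and Ncl (1), and none for the other 6. All but 1 were pseudogenes. Those of Npm1 held 194 and 307 expected counts, or 1.28% and 1.34% of the gene's own, with Gm14681 highest at 76.2 and 152. Those of Nop56 held 0.529% and 0.483%, with AC122861.1 highest at 32.9 and 34.6 counts, and that of Ncl held 0.

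Fbl was the exception. Its processed pseudogene Gm5812, on chromosome 17 from 6121208 to 6122164 inside Tulp4, matches the whole coding sequence at 96.8% identity. It held 510 and 527 expected counts, so the pseudogenes of Fbl together had 21.1% and 15.6% as many counts as Fbl itself. A transcript of Tulp4, a protein-coding gene, also matches 674 bases at 99.6% and held 235 and 309 counts. How far the division of shared reads set the level of Fbl was not tested. Counts were whole in both libraries for 5 of the 10 genes (Ncl, Polr1c, Nolc1, Tcof1 and Polr1b). The share over all protein-coding genes is not given here, so this count only describes the 10 genes.

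Small RNAs inside the introns gave few reads in these polyA libraries. Of the 5 small nucleolar RNA genes inside Nop56, 4 were at 0 counts in both libraries and Gm24451 had 5 and 4, and the 3 inside Ncl were at 0, which allows up to 3 counts per library. The microRNA gene mmu-mir-3535 inside Ncl had 5 and 4 counts. Opposite to Polr1a, Gm26628 had 14.1 and 17.1 and the pseudogene Gm19078 had 15 and 7 counts, and Rps10-ps4 opposite to Polr1d had 2 and 1. Idh3b overlaps the end of Nop56 by 5 bases on the other strand and had 3032 and 4127 counts. Whether reads were counted by strand is not stated in the labels or headers, so reads of such overlaps cannot be told apart.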

How the data were processed

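PolyA plus RNA was sequenced from 2 pools of embryonic facial prominence, after mirVana extraction, oligo-dT priming and Nextera tagmentation, per the labels' protocols. The authors deposited gene and transcript tables on mm10 with GENCODE releases M21 and M4. Per the file headers, these hold expected counts, TPM (maximum-likelihood and posterior mean) and, for transcripts, the percent of the gene's abundance that each carries. Which aligner and quantifier made them is not given in the labels or headers. Both libraries form 1 group, so no test between conditions exists.

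Levels are the deposited TPM, with mean and SD. Libraries were compared by log2((TPM + 1) of replicate 2 over replicate 1), which understates low genes, with exact conditional (Clopper-Pearson) 95% intervals on expected counts, rounded to whole numbers and set against the total over genes (27887968 and 39819334). Rows naming no gene or spike-in held 0.000139% and 0.000114% of counts and were left out. TMM (edgeR 4.0.16) and DESeq2 1.42.0 size factors served as alternative scalings. blastn 2.17.0 found near-identical copies. Python 3.11.15, SciPy 1.17.1, pandas 2.3.3 and R 4.3.3 were used. The fold threshold and the interval were also tried on simulated counts with counting error only. That trial took the fold on count ratios rather than on TPM + 1. It held no variation between pools and no amplified reads, so it cannot speak to either. The 10 genes and all lists were chosen with earlier results of these data known. Named were all 10 genes, every gene of lists of up to 13, the 4 highest and 2 lowest of longer lists, and overlapping genes or pseudogenes by expected count. Most markers and copies are given as counts. The levels over the length of the longest consensus coding transcript, and the search for copies, were added after the data were seen. The planned protein composition of the 10 genes was not analysed here. A listed gene is not reported here and was left out of its list.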

Additional observations from a re-analysis of the deposited data

How the results depend on the processing

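All 10 genes remained detected and none passed 1.5-fold between libraries under every alternative run for these counts (posterior mean TPM, release M4, pseudocounts of 0.1 and 10, TMM, DESeq2 size factors and spike-in scaling, as far as each applies). The count at 100 TPM or more stayed at 4, except for 5 when TPM was rescaled to protein-coding genes. The number led by a noncoding transcript was 1 with release M4, where Polr1a has 1 transcript. The ratio of Polr1c to Polr1a, 2.40, was 2.31 with posterior mean TPM, 3.63 with release M4 and 4.71 over the length of the consensus coding transcript. The median over the 118 other listed genes, 50.2 TPM, was 49.2 with posterior mean TPM, 46.2 with release M4 and 49.88 to 49.92 leaving out either library. The cause of these shifts was not tested. No paired analysis was possible because both libraries belong to the same group. With 2 libraries, an SD rests on a single difference, and depth limits genes near a TPM of 1, such as Npm2.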
